A study of Mus musculus with 6 samples.

Results

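Krüppel-like factors (KLFs) are transcription factors that bind GC-rich DNA and CACCC boxes through zinc fingers at their C-terminal end, and that activate or repress genes through regions specific to each member. In muscle they are known for roles in fuel use, in the response to glucocorticoids and feeding, and in fibre growth. FBXW7 is the F-box subunit through which a ubiquitin ligase recognises phosphorylated substrates, and KLF2 and KLF5 are among the proteins it is known to mark for degradation. The 10 genes described here are Klf2, Klf3, Klf4, Klf5, Klf6, Klf9, Klf10, Klf11, Klf13 and Klf15, found by their symbols among 22481 in the deposited mRNA table. All 10 had 1 row each and passed the filter on low values, a mean of at least 0.5 FPKM (fragments scaled to transcript length and library size) over the 6 libraries, as did 11659 genes in all.

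Quadriceps RNA was measured in 3 control libraries from Fbxw7 flox/flox mice and in 3 knockout libraries from MCK-Cre+/-, Fbxw7 flox/flox mice. Both groups are homozygous for the floxed allele. The Cre transgene is driven by the muscle creatine kinase promoter, which is active in muscle fibres, and it is absent from the controls, so effects of Cre itself and of Fbxw7 loss cannot be told apart. The sources used here give neither age nor sex, nor whether each library is a separate animal, so p-values reflect only the spread among these libraries, which may be technical.

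The floxed gene was measured as a check of the labels. Fbxw7 read 6.51, 6.23 and 6.36 FPKM in controls and 4.02, 3.86 and 3.81 in knockouts, in a value for the whole gene and not for its deleted exons alone, with no overlap (log2 change -0.69, SE 0.12, adjusted p = 0.0028). Listed transcripts of muscle fibres were abundant in all libraries, with 5 of 7 lowered and 2 raised in the knockout. Actn3, Tnnt3, Ckm and Myh4 were among the lowered. Of all tested genes, 10.1% were lowered and 24.5% raised, at an adjusted p under 0.05 from limma. The summed level of the fibre transcripts was 58335 to 60300 FPKM in controls and 27609 to 29235 in knockouts. With quantile normalization 4 of the 7 were lowered and 2 raised. Their median log2 change was then -0.44, against -1.33 in the deposited FPKM. Fragments, estimated from the authors' scaled count columns, numbered 8435731 to 11783852 in each control and 3150443 to 6704228 in each knockout. The shallowest library, knockout 1, held between 17 fragments of Klf5 and 245 of Klf9.

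FBXW7 recognises a phosphorylated degron whose core is a threonine and a proline followed, after any pair of residues, by a serine or an acidic residue. The codons of the form with serine were searched in frame in the longest GENCODE M21 coding sequence of each gene, as ACN, CCN and 2 codons of any kind, then TCN, AGC or AGT. They were present in 6 of the 10 genes and in 14.0% of 21526 coding sequences. The 10 genes are related members of a family, so their matches are not independent of each other. Neither length, with a median of 396 codons over all sequences, nor base composition was allowed for. The comparison is thus a description, and enrichment was not tested. Klf2 had 2 matches, beginning at codons 171 and 243, and Klf5 had 1, at codon 312. Klf4, Klf6, Klf10 and Klf11 also held matches, and Klf3, Klf9, Klf13 and Klf15 held none. The stretches below are coding DNA around the matches of the named FBXW7 substrates and of Klf10, the gene with the largest change, with the matching codons in capitals.
Klf2, codon 171: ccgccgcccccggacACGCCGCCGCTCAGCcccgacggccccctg
Klf2, codon 243: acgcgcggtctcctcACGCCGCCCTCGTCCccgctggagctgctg
Klf5, codon 312: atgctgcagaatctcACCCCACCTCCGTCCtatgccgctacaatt
Klf10, codon 92: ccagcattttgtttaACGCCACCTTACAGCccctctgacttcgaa
A match is a feature of the sequence, and no protein was measured in these libraries.

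Since KLFs bind CACCC boxes, the 250 bases before the start of each gene were searched for CACCC on both strands in RefSeq promoters of GRCm38.p6, the assembly that mm10 follows. Windows were held for 8 of the 10 genes, and 5 of these had at least 1 match, against 52.0% of 32841 windows. The windows are shown for the called genes that had one, with each match in capitals.
Klf3, chr5:64803271-64803520, plus strand: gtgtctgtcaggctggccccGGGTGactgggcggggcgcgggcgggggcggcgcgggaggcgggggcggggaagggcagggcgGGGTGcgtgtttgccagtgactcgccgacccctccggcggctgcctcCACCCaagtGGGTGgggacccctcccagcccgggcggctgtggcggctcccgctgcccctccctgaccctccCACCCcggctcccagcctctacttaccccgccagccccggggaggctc
Klf4, chr4:55532476-55532725, minus strand: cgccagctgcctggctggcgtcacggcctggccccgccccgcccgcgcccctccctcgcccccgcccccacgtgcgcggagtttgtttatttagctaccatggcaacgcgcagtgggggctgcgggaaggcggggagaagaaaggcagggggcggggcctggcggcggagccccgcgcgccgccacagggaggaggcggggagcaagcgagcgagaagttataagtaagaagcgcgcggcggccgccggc
Klf9, chr19:23140976-23141225, plus strand: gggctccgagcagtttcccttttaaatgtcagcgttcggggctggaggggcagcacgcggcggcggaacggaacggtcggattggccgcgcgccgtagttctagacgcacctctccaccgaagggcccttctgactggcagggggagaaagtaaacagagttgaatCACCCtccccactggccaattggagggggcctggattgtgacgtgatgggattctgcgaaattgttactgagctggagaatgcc
Klf3 held 5 matches, Klf9 held 1 and Klf4 held none. The RefSeq start of Klf3 lies inside the gene as GENCODE gives it, so this window overlaps the GENCODE gene. The same holds for the windows of Klf2, Klf6 and Klf11. The window of Klf3 also held 6 matches to GGGCGG on either strand, that of Klf4 held 4 and that of Klf9 none. GGGCGG was found in 32.7% of all windows and in 7 of the 8.

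In knockout quadriceps Klf10 and Klf9 fell, Klf3 rose, and Klf4 rose by a small amount. The named substrates Klf2 and Klf5 were not called, nor were Klf6, Klf11, Klf13 and Klf15. The calls thus numbered 4 of 10, where 34.6% of all tested genes were called at an adjusted p under 0.05. By direction, 2 of 10 were higher and 2 of 10 lower, against 24.5% and 10.1% of all tested genes. The median log2 change was 0.06 over the 10 genes and 0.21 over all tested genes. For 4 of the 10 the 3 knockout values lay on one side of all 3 control values, which held for 49.8% of tested genes. These were 2 genes with all knockout values above and 2 with all below, against 35.7% and 14.0% of tested genes. The share called is close to that of the transcriptome, and the family is described below by member.

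**Figure D1:**
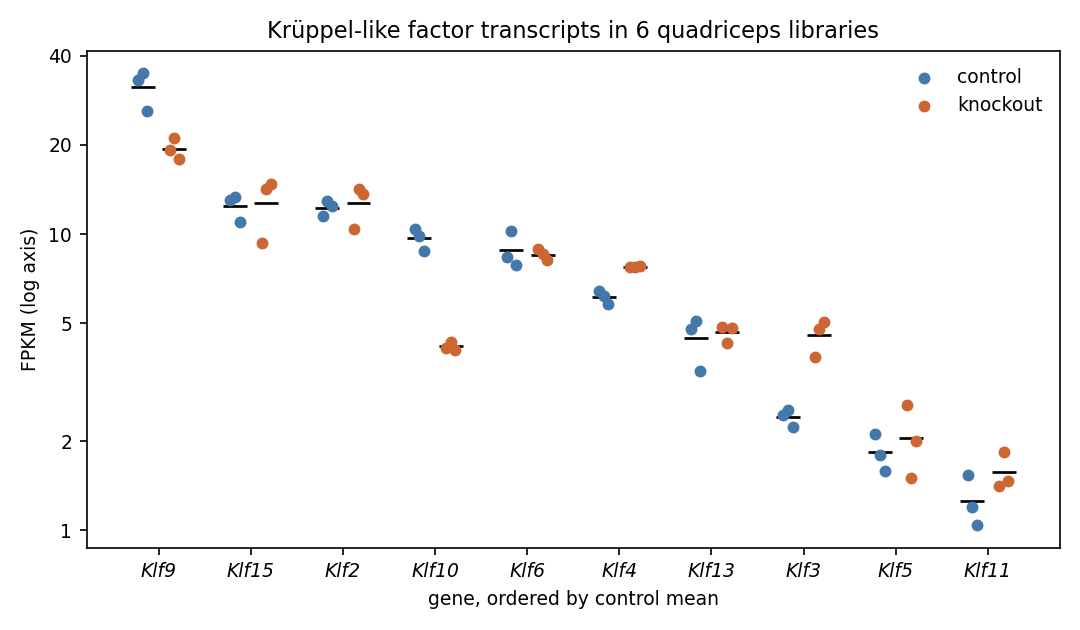
FPKM of each gene on a log axis, with 1 point per library, blue for controls and orange for knockouts, and a bar at each mean (n = 3 per group). Klf10 and Klf9 points do not overlap and are lower in knockouts, those of Klf3 and Klf4 do not overlap and are higher, and the other 6 genes overlap.

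Klf10 had the largest change. It encodes a repressor induced early by transforming growth factor β (TGF-β) and is linked in liver to the circadian control of glucose metabolism. Klf10 (ENSMUSG00000037465, mm10 chromosome 15, 38291463 to 38300706, minus strand) read 10.4, 9.87 and 8.80 FPKM in controls and 4.14, 4.33 and 4.06 in knockouts. All knockout values lay below all control values. The mean fell from 9.68 ± 0.802 to 4.18 ± 0.140 (SD, n = 3), 2.32-fold lower, with a log2 change of -1.19 (SE 0.12, adjusted p = 1.79e-04 from limma). Permuting the 6 libraries exactly for Klf10, two-sided, gave p = 0.1, the smallest value that 3 against 3 can reach. Estimated fragments behind these values numbered 288 to 455 in controls and 49 to 128 in knockouts.

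Klf9, which glucocorticoid and thyroid hormones induce, was the most abundant of the 10 genes in each group. Klf9 (ENSMUSG00000033863, chromosome 19, 23141226 to 23168134, plus strand) read 33.0, 34.9 and 26.0 FPKM in controls and 19.2, 21.1 and 17.9 in knockouts. Control 3 was the lowest control and still above every knockout. The mean fell from 31.3 ± 4.70 to 19.4 ± 1.64, 1.61-fold lower (log2 change -0.68, SE 0.13, adjusted p = 0.0044).

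Klf3 rose. It encodes a repressor that recruits C-terminal binding proteins and that also binds muscle gene promoters together with serum response factor. Klf3 (ENSMUSG00000029178, chromosome 5, 64803388 to 64832901, plus strand) read 2.44, 2.54 and 2.24 FPKM in controls and 3.84, 4.78 and 5.06 in knockouts. Knockout 1 was the lowest knockout and still above every control. The mean rose 1.89-fold, from 2.41 ± 0.157 to 4.56 ± 0.635 (log2 change 0.89, SE 0.16, adjusted p = 0.0038). Exons of Klf3 overlap the noncoding gene Gm20033 on the opposite strand, and whether the authors' counting used the strand is not stated, so signal of the 2 genes cannot be set apart. None of the other 9 genes overlaps an exon of another gene in GENCODE M21.

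Klf4, a factor of pluripotency that in adult tissue is expressed in endothelium, smooth muscle and epithelia, differed by less. Klf4 (ENSMUSG00000003032, chromosome 4, 55527143 to 55532466, minus strand) read 6.44, 6.19 and 5.81 FPKM in controls and 7.73, 7.73 and 7.82 in knockouts. The groups did not overlap, and the 3 knockout values were close to each other. These knockout values rested on 91, 227 and 175 estimated fragments. Their exact Poisson 95% intervals, which cover counting error only, were 6.22 to 9.49, 6.75 to 8.80 and 6.70 to 9.07 FPKM. The intervals are wider than the spread of the 3 values, so the closeness does not show precision. That of knockout 1 reached below the value of control 1. The mean rose from 6.14 ± 0.318 to 7.76 ± 0.0527 (log2 change 0.33, SE 0.11, adjusted p = 0.0455). The call ended in 9 of 15 alternatives, these being scaling by median of ratios (log2 change 0.11, adjusted p = 0.411), quantile normalization (0.11, adjusted p = 0.404), a replicate block (adjusted p = 0.0754) and the removal of any 1 library (adjusted p 0.0716 to 0.109), and over all 15 adjusted p ranged from 0.0174 to 0.411.

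Klf2 and Klf5, the members named as FBXW7 substrates, gave no call at the transcript level. Klf2 maintains quiescence in endothelium and naive T cells. Klf2 (ENSMUSG00000055148, chromosome 8, 72319033 to 72321656, plus strand) read 11.5, 12.9 and 12.5 FPKM in controls and 10.4, 14.2 and 13.6 in knockouts. The knockout values held both the lowest and the highest library. The means were 12.3 ± 0.702 and 12.7 ± 2.04 (log2 change 0.04, SE 0.14, adjusted p = 0.847), and the 95% interval of the change ran from -0.27 to 0.35, or 0.829-fold to 1.27-fold.

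Klf5 regulates growth of smooth muscle and epithelia and, in skeletal muscle, myoblast differentiation. Klf5 (ENSMUSG00000005148, chromosome 14, 99298691 to 99315036, plus strand) read 2.11, 1.80 and 1.58 FPKM in controls and 2.65, 1.51 and 2.001 in knockouts. The groups overlapped, with the highest and the lowest value both among knockouts. The means were 1.83 ± 0.264 and 2.05 ± 0.574 (log2 change 0.13, SE 0.24, adjusted p = 0.698). The interval was wide, from -0.41 to 0.68 on the log2 scale or 0.751-fold to 1.60-fold. Knockout 1 rested on 17 estimated fragments, for which the exact Poisson 95% interval, which covers counting error only, is 9.90 to 27.2.

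Klf15 is induced by glucocorticoids and fasting and promotes the use of lipids and branched-chain amino acids in muscle. Klf15 (ENSMUSG00000030087, chromosome 6, 90462576 to 90475238, plus strand) read 13.1, 13.3 and 11.002 FPKM in controls and 9.35, 14.2 and 14.7 in knockouts. Knockout 1 lay below all controls and the other two knockouts above them. The means were 12.5 ± 1.27 and 12.8 ± 2.96 (log2 change 0.01, 95% interval -0.40 to 0.42, adjusted p = 0.968).

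The other 3 genes also overlapped between groups. Klf6, an early response gene of injured tissue, read 8.39, 10.2 and 7.86 FPKM in controls and 8.89, 8.54 and 8.17 in knockouts (log2 change -0.04, 95% interval -0.33 to 0.25). Klf13, a regulator of T cell and heart genes, read 4.79, 5.10 and 3.44 in controls and 4.85, 4.30 and 4.83 in knockouts (log2 change 0.08, 95% interval -0.31 to 0.48). Klf11, which like Klf10 is induced by TGF-β and acts in pancreatic islets, had the lowest mean of the 10 genes, at 1.53, 1.19 and 1.04 in controls and 1.41, 1.84 and 1.47 in knockouts (log2 change 0.31, 95% interval -0.21 to 0.83). Their adjusted p-values were 0.828, 0.730 and 0.321.

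**Figure D2:**
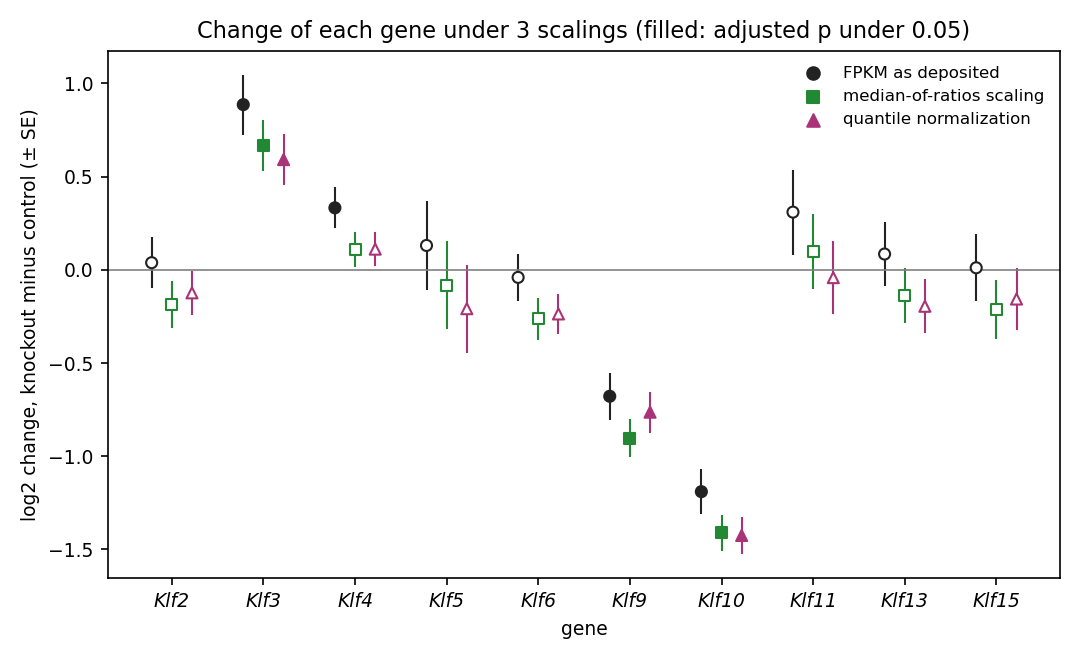
Log2 change of each gene, knockout minus control, with its SE, under the deposited FPKM, median-of-ratios scaling and quantile normalization. Filled symbols have an adjusted p under 0.05. Klf3, Klf9 and Klf10 are filled under all 3 scalings, Klf4 under the deposited FPKM alone, and the other 6 genes under none.

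The scale between libraries moved every estimate. The median of all tested genes was 0.21 as deposited and -0.01 under median-of-ratios scaling. Under the latter Klf10 changed by -1.41, Klf9 by -0.90 and Klf3 by 0.67 on the log2 scale, each still called, and Klf2 and Klf15 turned to -0.19 and -0.21 without a call. Across all 15 alternatives the log2 change ran from -1.43 to -1.04 for Klf10, from -0.90 to -0.59 for Klf9 and from 0.59 to 1.00 for Klf3. These 3 genes were called in every one of them, with the highest adjusted p at 0.0018, 0.0195 and 0.0176.

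FPKM is a level per length, so the genes can be ordered. In controls Klf9 stood above the rest, followed by Klf15, Klf2, Klf10, Klf6, Klf4, Klf13, Klf3, Klf5 and Klf11. In that order the ranges of Klf15 and Klf2 overlapped, and so did those of Klf10 and Klf6, while all other neighbours were apart. In knockouts Klf10 moved from the fourth to the eighth place and Klf3 from the eighth to the seventh. There the ranges overlapped for the neighbours Klf15 and Klf2, Klf13 and Klf3, Klf3 and Klf10, and Klf5 and Klf11. Klf9 lay at the 83.4th percentile of mean FPKM among tested genes and Klf11 at the 17.9th.

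Each gene's share of the KLF transcript pool was also computed, a value that no constant factor between libraries can alter. Klf9 took 35.3%, 35.6% and 32.4% of the summed FPKM of the 10 genes in controls and 26.5%, 25.6% and 22.4% in knockouts. Its mean share was 34.4% ± 1.76 and 24.9% ± 2.14. The share of Klf10 was 10.7% ± 0.550 and 5.35% ± 0.317, that of Klf3 2.66% ± 0.108 and 5.81% ± 0.524, and that of Klf4 6.81% ± 0.468 and 9.95% ± 0.659. The shares of Klf11 (1.38% ± 0.222 and 2.01% ± 0.201) and Klf13 (4.87% ± 0.499 and 5.99% ± 0.743) were also higher in every knockout library than in any control. Shares sum to 100%, so the lower shares of Klf9 and Klf10 raise the rest by construction. For these 6 genes the groups did not overlap, and exact two-sided permutation tests gave p = 0.1 each, the smallest the design allows (0.167 adjusted over the 10 shares), so no share passed the threshold or could have passed it.

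**Figure D3:**
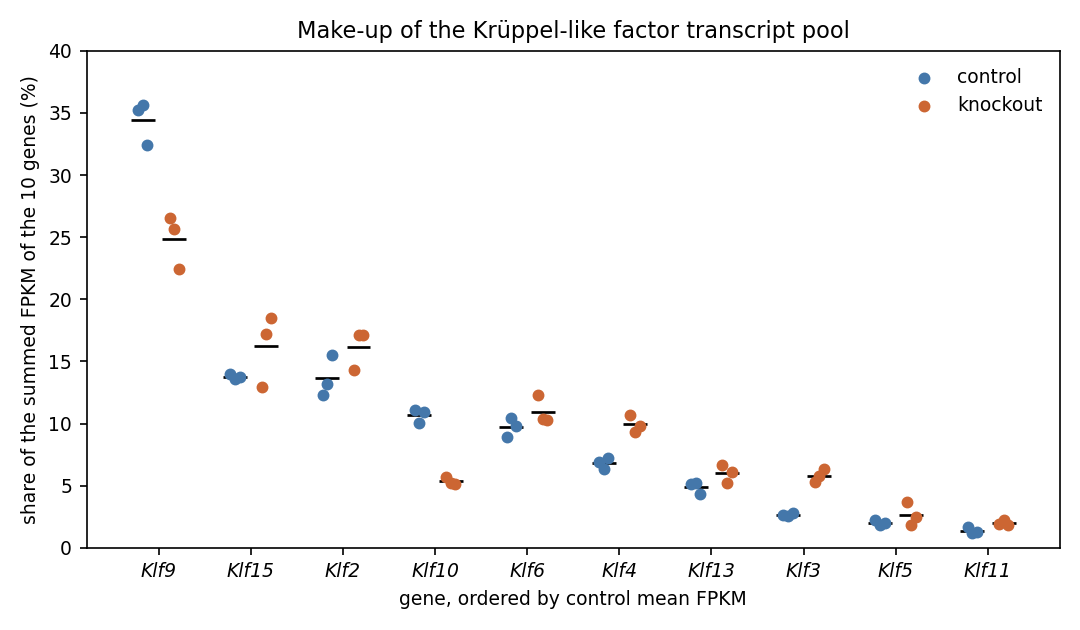
Share of each gene in the summed FPKM of the 10 genes, in percent, with 1 point per library, blue for controls and orange for knockouts, and a bar at each mean. Klf9 and Klf10 hold smaller shares in all 3 knockouts, and Klf3, Klf4, Klf11 and Klf13 larger ones.

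The summed level of the 10 genes was 93.7, 98.0 and 80.2 FPKM in controls and 72.5, 82.6 and 79.6 in knockouts, and the groups overlapped (exact permutation p = 0.2). The ratio of Klf3 to Klf10 within a library averaged 0.249 ± 0.0118 in controls and 1.09 ± 0.158 in knockouts. It lay between 0.236 and 0.258 in controls and between 0.929 and 1.24 in knockouts, a description with no test, since opposite shifts of the 2 genes fix its direction. The ratio of Klf9 to Klf15, both glucocorticoid-induced, averaged 2.50 ± 0.132 and 1.59 ± 0.430.

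Of 16 other KLF genes and related SP factors, which bind the same kind of GC-rich sites, 7 were tested and 1 was called. Over all tested genes 34.6% were called, 24.5% higher and 10.1% lower. Klf12, a repressor close to Klf3 and Klf8, read 0.582, 0.414 and 0.156 FPKM in controls and 1.58, 0.808 and 0.810 in knockouts. Its rise from 0.384 ± 0.215 to 1.07 ± 0.445 (log2 change 1.32, SE 0.44, adjusted p = 0.0482) ended under both scalings (adjusted p = 0.0857 and 0.143), without control 2 or 3 or any knockout library (adjusted p 0.0651 to 0.124), with no filter on low values, with the limma trend left off and with a pseudocount of 0.01 FPKM. Klf16 (0.695 ± 0.107 and 1.13 ± 0.214) and the ubiquitous activator Sp1 (2.25 ± 0.366 and 3.01 ± 0.204) had non-overlapping groups without a call, although Klf16 was called with the limma trend left off (adjusted p = 0.0361) and Sp1 in the scaled count columns (adjusted p = 0.0214). Klf7, Sp2, Sp3 and Sp4 were not called, with log2 changes from -0.46 to 0.36. The groups of Sp4 did not overlap either, with knockouts lower (0.533 to 0.626 FPKM) than controls (0.691 to 0.984). Sp2 was called lower when scaled by median of ratios (adjusted p = 0.0282) and by quantiles (adjusted p = 0.0195), and Sp4 by quantiles (adjusted p = 0.0277). Klf17, Sp5, Sp8 and Sp9 were listed at 0 in all libraries.

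Genes that KLF proteins work with went both ways. Of 12 co-repressors and co-activators 3 rose and 4 fell, where 24.5% of all tested genes rose and 10.1% fell. Scaled by median of ratios, 2 of the list rose and 6 fell, where 1628 of all 11659 rose and 2140 fell, a background that holds for the counts on that scale in the other lists too. Fhl3, a LIM protein that binds KLF3 on muscle promoters, fell from 105 ± 6.30 to 37.7 ± 6.72 FPKM (log2 change -1.49, SE 0.12, adjusted p = 6.43e-05), and the deacetylase gene Hdac3 from 36.6 ± 0.961 to 26.1 ± 1.02. Sin3a, the scaffold through which KLF9, KLF10, KLF11 and KLF13 repress, rose from 4.16 ± 0.713 to 8.54 ± 1.99, although in the authors' scaled count columns its log2 change was 0.22 (adjusted p = 0.189). Crebbp, an acetyltransferase, rose from 1.25 ± 0.227 to 2.46 ± 0.176. The median log2 change of the list was -0.05, against 0.21 for all tested genes.

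Of 12 genes of KLF turnover, 3 rose and 3 fell, or 1 and 6 when scaled by median of ratios. Over the transcriptome the calls were 24.5% higher and 10.1% lower. The list holds ubiquitin ligases reported for KLF proteins, the SCF core and the GSK3 kinases that phosphorylate the FBXW7 degron. Gsk3b rose from 6.68 ± 0.770 to 10.4 ± 0.314 FPKM (log2 change 0.64, adjusted p = 0.0048), while Gsk3a fell from 61.9 ± 4.64 to 43.4 ± 4.76 (log2 change -0.52, adjusted p = 0.0056). The SCF core genes Skp1a and Rbx1 moved in opposite directions, from 136 ± 7.56 to 184 ± 9.05 and from 34.9 ± 1.55 to 26.6 ± 3.22. The call of Skp1a ended when scaled by median of ratios (adjusted p = 0.0518), and that of Rbx1 without control 3, knockout 2 or knockout 3 (adjusted p 0.0538 to 0.0668) and with the limma trend left off (adjusted p = 0.0508).

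The MEF2 factors that act below ERK5 on the Klf2 and Klf4 promoters gave 2 calls among 7 genes of that route, both higher, where 24.5% of all tested genes were higher. Scaled by median of ratios, none of the 7 was called higher and 1 was called lower. With quantile normalization 2 were called higher and none lower, where 1715 of all 11659 rose and 1696 fell. That background holds for the counts with quantile normalization in the other lists too. Mef2c read 94.6 ± 9.39 and 119 ± 4.05 FPKM (adjusted p = 0.0149) and Mef2d 47.5 ± 5.03 and 63.5 ± 3.92 (adjusted p = 0.0106). Under median-of-ratios scaling Mef2c and Mef2d had no call (adjusted p = 0.194 and 0.0808). The call of Mef2c also ended without knockout 2 (adjusted p = 0.056) and with the limma trend left off (adjusted p = 0.0633), and that of Mef2d in the scaled count columns (adjusted p = 0.0894). Of 18 other tested FBXW7 substrates 3 rose and 3 fell, or 3 and 5 when scaled by median of ratios, with a median log2 change of 0.19. The shares over all tested genes were 24.5% and 10.1%, and their median was 0.21. Nfe2l1, a regulator of proteasome genes, rose from 125 ± 10.2 to 287 ± 3.27, and Srebf2, the regulator of sterol synthesis, from 2.10 ± 0.311 to 4.03 ± 0.467. The mitotic kinase gene Aurka fell from 9.64 ± 2.35 to 1.67 ± 0.392 and the clock repressor gene Nr1d1 from 40.9 ± 0.549 to 27.5 ± 2.71.

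Genes linked to single KLF proteins in earlier work were compared by list. Some genes stand in several lists, so counts of different lists are not independent. Cpt1b is in those of KLF15 and KLF5, and Nr1d1 in those of FBXW7 substrates and the clock. Of 16 tested genes linked to KLF15 in fuel use, 9 rose and 2 fell, or 6 and 3 when scaled by median of ratios, with a median log2 change of 0.36. All tested genes had 24.5% higher, 10.1% lower and a median of 0.21. Acss2, which activates acetate to acetyl-CoA, rose from 10.2 ± 1.402 to 30.9 ± 2.30 FPKM, and the fatty acid genes Fabp3 and Acadl rose too, by 1.02 and 0.79 on the log2 scale. The glucose transporter gene Slc2a4, which KLF15 is known to activate, fell (log2 change -0.97). Adipocyte markers moved with these fat-using genes, with 5 of 5 tested raised, none of 6 at 0 in all libraries, and a summed level of 69.2 to 77.9 FPKM in controls and 156 to 165 in knockouts. Their part in the result was not tested.

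Of 11 genes linked to KLF5, 5 rose and 5 fell, or 3 and 5 when scaled by median of ratios, beside 24.5% and 10.1% of all tested genes. The uncoupling protein gene Ucp2 rose from 7.47 ± 1.10 to 23.5 ± 4.98 FPKM, the carnitine palmitoyltransferase gene Cpt1b from 86.5 ± 6.39 to 126 ± 13.7, and the cyclin gene Ccnd1 from 2.07 ± 0.0947 to 3.81 ± 0.344. The ubiquitin ligase gene Trim63 fell by 1.33 on the log2 scale. Markers of smooth muscle, a tissue known to express Klf4 and Klf5, had a summed level of 123 to 128 FPKM in controls and 113 to 118 in knockouts, with 1 of 7 lowered and none raised (2 lowered with quantile normalization), and none was at 0 in all libraries. Their part in these levels was not tested.

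Of 8 genes linked to KLF2, 3 rose and none fell, beside 24.5% and 10.1% of all tested genes. Among them the integrin gene Itgb7, a gene of lymphocytes, rose from 0.399 ± 0.0704 to 1.32 ± 0.0333 FPKM, and the cell cycle inhibitor gene Cdkn1a from 13.1 ± 0.890 to 21.2 ± 2.70. The endothelial genes of the list, Nos3, Thbd, Tek, Edn1 and S1pr1, were not called. Lymphocyte markers moved with Itgb7. All 6 B cell markers and 5 of 5 tested T cell markers rose, with summed levels of 0.0855 to 0.231 and 0.386 to 0.953 in controls and 12.7 to 16.3 and 11.1 to 17.4 in knockouts, and Cd79a, Ms4a1 and Fcer2a were listed at 0 in every control. Endothelial markers had summed levels of 128 to 136 and 121 to 132, with 1 of 11 raised and 1 lowered. Scaled by median of ratios none was raised and 3 were lowered, and with quantile normalization none and 2. In the scaled count columns 3 were raised and 1 lowered, where 3548 of all 11659 genes rose and 1376 fell. The part of these cells in the levels of Klf2 and Klf4 was not tested. In bulk RNA, fewer cells of a type and less RNA per cell cannot be told apart.

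The signalling programmes that induce KLF genes gave mixed calls. Of 13 genes of the TGF-β route, to which Klf10 and Klf11 respond early, 5 rose and 1 fell, or 3 and 1 when scaled by median of ratios, with a median log2 change of 0.50. All tested genes had 24.5% higher, 10.1% lower and a median of 0.21. The ligand genes Tgfb3 and Tgfb2 rose from 10.4 ± 0.416 to 21.4 ± 1.64 FPKM and from 4.10 ± 0.424 to 7.69 ± 0.591, and Pmepa1, a feedback inhibitor, fell from 9.92 ± 2.12 to 4.72 ± 0.828. Ctgf, a matricellular target, read 16.2 ± 1.87 and 23.4 ± 1.91, a call that ended when scaled by median of ratios (adjusted p = 0.0772).

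Of 16 tested glucocorticoid response genes, the programme of Klf9 and Klf15, 4 rose and 4 fell, or 3 and 5 when scaled by median of ratios, beside 24.5% and 10.1% of all tested genes. The kinase gene Sgk1 fell from 85.9 ± 6.78 to 41.2 ± 2.68 FPKM (log2 change -1.06, SE 0.09, adjusted p = 5.91e-05), and Tsc22d3, which encodes a leucine zipper protein, from 109 ± 9.21 to 62.5 ± 1.27. The metallothionein genes Mt1 and Mt2 rose, from 49.5 ± 6.01 to 91.3 ± 2.27 and from 28.8 ± 4.49 to 54.1 ± 6.72. The receptor gene Nr3c1, named after its values were seen, was not called (10.02 ± 1.53 and 8.92 ± 0.881).

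Of 21 immediate early genes, a class to which Klf2, Klf4, Klf6 and Klf10 can belong, 9 rose and 1 fell, or 6 and 1 when scaled by median of ratios, beside 24.5% and 10.1% of all tested genes. Atf3, Btg2 and Egr2 rose by 1.33, 1.34 and 2.01 on the log2 scale, and Nr4a1 fell by 1.07. Of 14 tested clock genes, 1 rose and 4 fell, or 1 and 8 when scaled by median of ratios, beside 24.5% and 10.1% of all tested genes. Bhlhe40, a repressor of the clock, fell from 30.4 ± 1.998 to 12.4 ± 2.52 FPKM and the output factor gene Dbp from 32.4 ± 2.08 to 21.98 ± 0.598, while Cry2 rose from 6.62 ± 0.879 to 14.3 ± 1.297. The labels give no time of day for the collection.

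**Figure D4:**
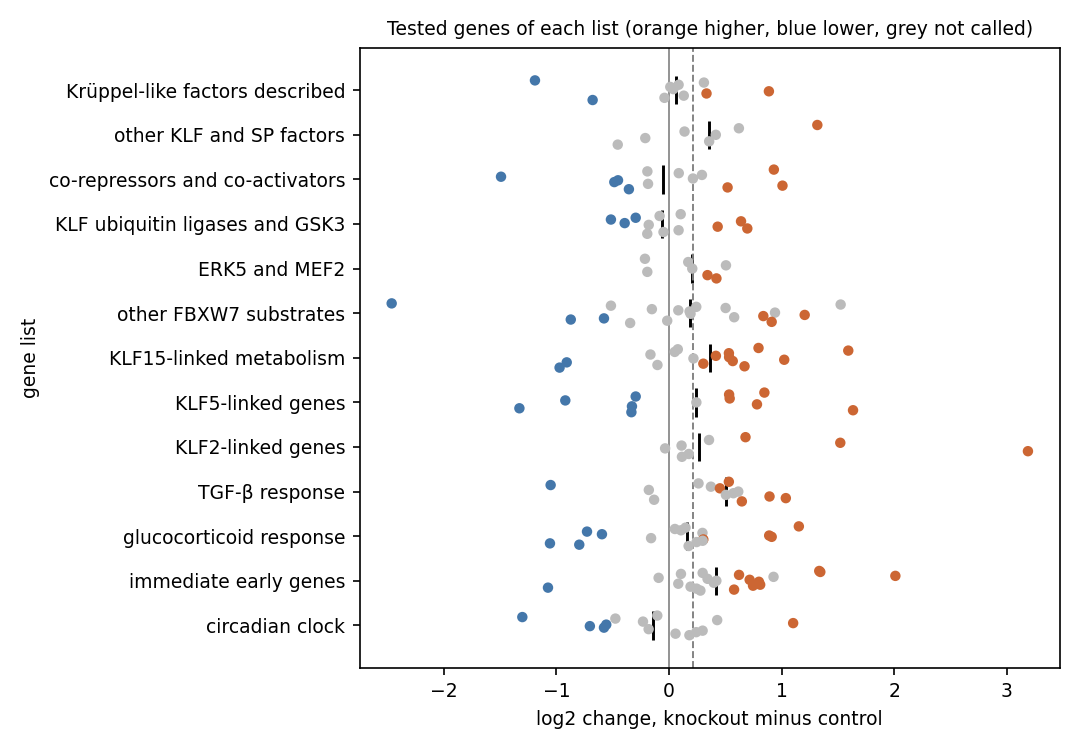
Log2 change, knockout minus control, of every tested gene in the 10 KLF genes and 12 related lists, with 1 point per gene (orange called higher, blue called lower, grey not called), a black bar at each list's median and a dashed line at the median of all tested genes, 0.21. Most lists hold both orange and blue points, and the KLF genes span from -1.19 for Klf10 to 0.89 for Klf3.

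The genes whose log2 values tracked Klf10 most closely over the 6 libraries were Mylk4, Cdkn2c and Myl1, each with Pearson r above 0.999. Mylk4, a myosin light chain kinase gene, read 245 to 318 FPKM in controls and 62.0 to 66.3 in knockouts. The 6 points fall into the 2 genotype groups and share their library's scale, and 562 of 11136 named genes had r over 0.95 with Klf10. Klf5 was tracked most closely by Snx12, Ermp1 and Slc27a3, with r of 0.994, 0.978 and 0.974, and 4 genes had r over 0.95. Such values were picked as the highest among 11136 named genes over only 6 libraries, so no relation to Klf5 is read from them.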

How the data were processed

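Ribosomal RNA was removed from total quadriceps RNA and libraries were made with a stranded kit, per the labels' protocols. Per the submitters' processing notes, reads were trimmed with cutadapt 1.9.3, aligned with HISAT2 2.0.4 to mm10 and quantified with Cufflinks and Cuffdiff. The authors deposited FPKM per gene and library. How FPKM were scaled between libraries is not stated. The deposited columns headed as counts hold a scaled signal that is not whole. Divided by the most frequent value above 0 in each library, it gave estimated fragments, and 58 of the 60 member values came out whole within 0.1.

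Rows sharing a symbol were summed. The 11659 genes whose mean reached 0.5 FPKM were fitted as log2(FPKM + 0.1) by limma 3.58.1 (R 4.3.3, trended empirical Bayes), a scale that understates the change of low genes. The Benjamini-Hochberg adjustment ran over all of them, with a threshold of 0.05. Shares and sums used exact two-sided permutation tests (SciPy 1.17.1). The fit was tested on simulated data in which few genes changed, evenly in both directions. That setting holds no difference in scale between the groups, so it does not cover the one seen here. Positions are from GENCODE M21 on mm10, by Ensembl identifier. Alternatives covered pseudocount, filter, scaling, trend, replicate block, each library left out and the scaled count columns, the last chosen after seeing the data. The members and lists were chosen with earlier results of these data known. The text names all members, tested KLF and SP relatives, and up to 4 called genes of smallest p per list. Some genes of the lists are not reported here.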

Additional observations from a re-analysis of the deposited data

How the results depend on the processing

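Klf3, Klf9, Klf10 and Fbxw7 kept their direction and call in all 15 alternatives, and no other gene of the 10 than Klf4 lost or gained a call. Klf4 was weaker under median-of-ratios scaling (0.11), quantile normalization (0.11) and the replicate block (0.33, adjusted p = 0.0754), and without any 1 library (0.29 to 0.37). Genes without a call changed sign, under median-of-ratios scaling Klf2 (-0.19), Klf5 (-0.083), Klf13 (-0.14) and Klf15 (-0.21), and under quantile normalization Klf2 (-0.12), Klf5 (-0.21), Klf11 (-0.042), Klf13 (-0.20) and Klf15 (-0.16). Median-of-ratios scaling divided controls by 0.873 to 0.967 and knockouts by 1.06 to 1.12, which lowers knockout values relative to control values. Why the libraries differ in scale was not tested. With 1 library left out the log2 change ran from -0.044 to 0.18 for Klf2, -0.064 to 0.33 for Klf5, -0.12 to 0.069 for Klf6, -0.084 to 0.19 for Klf13 and -0.11 to 0.22 for Klf15. Members called higher numbered 1 under both scalings, the replicate block and each left-out library (1 to 1). Among all genes, 2860 were higher and 1177 lower as deposited, 1628 and 2140 with median-of-ratios scaling, and 1715 and 1696 with quantile normalization. Of all calls, 70.8% were higher as deposited, 43.2% with median-of-ratios and 50.3% with quantile scaling. Deviations of same-numbered control and knockout libraries correlated at -0.07, 0.20 and 0.18. Those of differently numbered libraries ran from -0.29 to 0.18. These values overlap and do not decide whether the numbers mark pairs, and no pairing was used in the main fit. The replicate block ended no call among the 10 genes other than that of Klf4. With 17 to 50 fragments, Klf5 has the least depth of the 10.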

Other observations

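Beside the lists already given, of 6 fibroblast markers 3 rose and 1 fell (summed 496 to 523 and 542 to 627 FPKM). Of 7 tested macrophage markers 2 rose (89.9 to 97.7 and 103 to 126), or none when scaled by median of ratios and 2 with quantile normalization. For these and the marker counts that follow, 24.5% of all tested genes were higher and 10.1% lower. Both tested satellite cell markers of 5 listed, Cdh15 and Vcam1, were called higher, the latter not under either scaling (adjusted p = 0.0917 and 0.230). The call of Vcam1 also ended under the replicate block (adjusted p = 0.0597) and without any library other than knockout 1 (adjusted p 0.0569 to 0.0835). Of 3 red cell markers 1, the globin gene Hbb-bs, fell from 183 ± 19.1 to 129 ± 13.3, and of 6 neutrophil markers the 2 tested were not called.

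CACGTG, the E-box of clock factors, was found in the 250 bases before the start of 4 of the 8 KLF genes with a window and in 6.02% of all 32841 windows. Klf15 held 2 matches, and Klf4, Klf6 and Klf11 held 1 each. Neither Klf9 nor Klf3 held any. The glucocorticoid response element in its full palindromic form was found in none of the 8 and in 3 of all windows. The windows of the 8 genes were 59.6% to 78.4% G and C, and their base composition was not set against that of the other windows.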
